A study of Mus musculus with 16 samples.

Results

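The 84 genes described here, in mouse neurons, belong to families named for enzymes and remodelers that write, erase or act on chromatin marks. They are all protein-coding rows of the count table whose symbols begin with Kdm, Kmt, Hdac, Smarc or Setd, or with Sirt or Chd and a digit, together with Ezh1, Ezh2, Dnmt1, Dnmt3a, Tet1, Tet2 and Tet3, provided that at least 4 libraries had 10 or more counts. No gene that fitted the names failed that minimum, so the members are 84 of 55335 rows in all and of 21899 protein-coding rows. By family there were 18 Kdm, 13 Smarc, 11 Hdac, 10 Chd, 10 Setd, 8 Kmt, 7 Sirt, 3 Tet, 2 Dnmt and 2 Ezh genes. The rule used gene names and this count minimum, and it was set with earlier results of these data known.

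RNA came from primary forebrain neuron cultures started around birth, in 16 libraries of 4 for each of 4 lentiviral vectors. One vector carried a short hairpin RNA, called the unmutated hairpin here. Others carried that hairpin with 2 or with 5 point mutations (the 2-mutation and 5-mutation hairpins), and the last was an empty vector, so all groups shared the transduction. The series title names the question as whether hairpins disturb neurons independently of their target. The labels give neither the hairpin's target nor its sequence, nor the strain or sex of the animals, and nothing in them ties a library to a culture or an animal. The p-values therefore measure the spread between these libraries, which may be technical. Cells process such a hairpin, by the enzymes that make microRNAs, into a guide strand that silences matching transcripts. Mutations in the hairpin change what the guide can match.

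Background on these families is as follows. Dnmt enzymes add methyl groups to cytosine, mostly where C is followed by G, and Tet enzymes oxidise them. Many Kmt, Setd and Ezh enzymes methylate lysines of histones, and many Kdm enzymes remove those groups. Many Hdac and Sirt enzymes remove acetyl groups, and many Smarc and Chd proteins belong to complexes that use ATP to move nucleosomes. Not every member acts on histones, and the roles counted below follow the family name alone. In neurons they help to set which genes answer to activity, and mutations in many of them cause disorders of brain development in humans.

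Total counts ran from 36143806 to 41152791 in the unmutated-hairpin libraries, 41618901 to 49824569 in the 2-mutation libraries and 35521472 to 47401867 in the 5-mutation libraries, against 33795369 to 46187568 in the empty-vector libraries. The 84 members together took 0.870 to 0.9002% of the counts with the unmutated hairpin, 0.768 to 0.772% with the 2-mutation hairpin and 0.839 to 0.887% with the 5-mutation hairpin, against 0.820 to 0.839% with the empty vector. Rtn4, a reticulon gene, averaged 30.5 ± 0.692, 127 ± 3.40 and 828 ± 37.2 CPM with the unmutated, 2-mutation and 5-mutation hairpins, against 863 ± 27.2 CPM with the empty vector (SD, n = 4 each). It was lower with the unmutated and 2-mutation hairpins and was not called with the 5-mutation hairpin (edgeR adjusted p = 8.86e-26, 3.39e-22 and 0.203). The noncoding transcript Gm26917 took 7.37 to 8.02%, 10.9 to 11.5% and 7.99 to 9.16% of the counts with the unmutated, 2-mutation and 5-mutation hairpins, against 5.85 to 6.34% with the empty vector. Levels here are in CPM, counts scaled to library sizes that TMM factors correct for composition. Neuronal markers were present in every library, with summed pan-neuronal levels of 4665 to 4939 CPM in the unmutated-hairpin libraries, 5302 to 5754 CPM in the 2-mutation libraries and 4977 to 5343 CPM in the 5-mutation libraries, against 5305 to 5661 CPM in the empty-vector libraries.

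Promoters of 5 members that differed between groups are shown first, picked with their values known. Cytosines followed by G are where Dnmt members mostly add the methyl groups that Tet members oxidise. Whether either acts on these stretches was not tested. Each sequence is the longest stretch of the 250 bases before the RefSeq gene start without an annotated exon on the gene's own strand. Exons on the other strand were not cut out. The stretches of Setd7, Kdm7a, Sirt2, Smarca2 and Smarcd1 end 56, 16, 17, 110 and 158 bases before that start. They are on GRCm38.p6, written 5′ to 3′ along the gene's own strand. Capitals mark each C followed by G.
Setd7 promoter, chr3:51560880-51561073, minus strand: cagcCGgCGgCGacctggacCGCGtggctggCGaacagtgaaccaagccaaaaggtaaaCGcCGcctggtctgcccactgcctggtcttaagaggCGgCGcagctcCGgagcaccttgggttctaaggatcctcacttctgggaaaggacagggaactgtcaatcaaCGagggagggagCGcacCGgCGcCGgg
Kdm7a promoter, chr6:39206790-39207023, minus strand: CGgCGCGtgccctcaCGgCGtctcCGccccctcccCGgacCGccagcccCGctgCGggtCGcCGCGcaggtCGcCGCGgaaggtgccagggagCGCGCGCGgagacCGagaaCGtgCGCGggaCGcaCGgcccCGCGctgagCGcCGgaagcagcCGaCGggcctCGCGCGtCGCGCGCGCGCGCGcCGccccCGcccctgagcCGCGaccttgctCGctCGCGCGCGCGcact
Sirt2 promoter, chr7:28766502-28766734, plus strand: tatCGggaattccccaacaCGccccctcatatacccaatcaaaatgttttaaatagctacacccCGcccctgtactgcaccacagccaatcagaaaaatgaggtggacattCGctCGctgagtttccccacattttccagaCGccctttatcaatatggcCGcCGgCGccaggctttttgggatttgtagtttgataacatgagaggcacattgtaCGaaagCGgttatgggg
Smarca2 promoter, chr19:26604910-26605049, plus strand: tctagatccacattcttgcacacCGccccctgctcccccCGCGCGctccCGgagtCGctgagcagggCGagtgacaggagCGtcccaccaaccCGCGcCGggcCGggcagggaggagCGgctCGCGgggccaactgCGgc
Smarcd1 promoter, chr15:99702037-99702128, plus strand: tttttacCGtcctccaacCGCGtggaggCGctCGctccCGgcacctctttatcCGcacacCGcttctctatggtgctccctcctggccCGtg
These stretches differed in composition. Setd7 held 16 such pairs in 194 bases, Kdm7a 52 in 234, Sirt2 11 in 233, Smarca2 16 in 140 and Smarcd1 9 in 92. Their GC content was 63.9, 82.0, 48.9, 73.6 and 63.0% in the same order. DNA methylation was not measured here.

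Over the whole 250 bases, RefSeq had windows for 68 of the 84 members, 92 in all. The median GC content of those windows was 62.2%, against 59.6% over 14452 windows of protein-coding genes tested and 52.4% over all 32841 windows. The median ratio of observed to expected C-G pairs was 0.838 in members, 0.694 in coding genes and 0.374 in all windows. The GC box GGGCGG, read on both strands, was in 59 of the 92 member windows (64.1%), in 56.1% of coding windows and in 32.7% of all. CCAAT was in 37.0% of member windows and 35.1% of coding windows, and the ETS core CCGGAAG in 12.0% of both. The E-box CACGTG was in 4.35% of member windows against 7.96% of coding windows, the YY1 core AAGATGG in 3.26% against 4.08%, and the cyclic AMP response element TGACGTCA in 0 of 92 against 2.47%. TATAAA, read on the gene's strand 15 to 40 bases before the start, was in 1 member window (1.09%), against 1.20% of coding windows. No 2 of these motifs contain one another. Of the printed stretches, Sirt2 held a GC box on the other strand and 2 CCAAT boxes, Kdm7a 3 GC boxes on the other strand and an ETS core, and Smarca2 a GC box on the other strand, while none of the motifs was found in Setd7 or Smarcd1.

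Members shifted in both directions with every hairpin. A gene is called higher or lower where its adjusted p in edgeR's quasi-likelihood test, corrected over all 19479 genes tested by the Benjamini-Hochberg method, was below 0.05; all 84 members were tested. With the unmutated hairpin 27 members rose (32.1%, against 20.8% of all genes) and 14 fell (16.7%, against 19.5%). With the 2-mutation hairpin 36 rose (42.9%, against 32.5%) and 30 fell (35.7%, against 30.8%). With the 5-mutation hairpin 35 rose (41.7%, against 28.4%) and 27 fell (32.1%, against 26.5%). The 3 comparisons share the empty-vector libraries. The members' median log2 fold change was 0.06 with each hairpin, against 0.01, −0.01 and 0.03 over all genes with the unmutated, 2-mutation and 5-mutation hairpins. In a culture, fewer cells of a type and less RNA per cell cannot be told apart by any of these values.

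Since more counts let a test call smaller differences, the shares were also read among the 11375 genes whose log2 CPM averaged 2 or more. This level was reached by 81 members and not by Kdm4d, Kdm8 and Setdb2. There, 40 members were called in either direction with the unmutated hairpin (49.4%, against 53.7% of genes), 64 with the 2-mutation hairpin (79.0%, against 77.8%) and 60 with the 5-mutation hairpin (74.1%, against 69.2%). These shares lie close to the background. Calls past 2-fold were few: 1 member with the unmutated hairpin (1.23%, against 2.19% of genes), 5 with the 2-mutation hairpin (6.17%, against 10.8%) and 4 with the 5-mutation hairpin (4.94%, against 7.37%). The median size of the log2 fold change in these members was 0.14, 0.33 and 0.37 with the unmutated, 2-mutation and 5-mutation hairpins, against 0.18, 0.36 and 0.26 over the genes of that level. A test of any difference among the 4 groups called 81 of the 84 members (96.4%, against 81.7% of all genes tested). That background also holds the genes below this level, and the share at a matched level was not computed. The 2 percentages therefore cannot be compared as the shares above were. The exceptions were the demethylase genes Kdm3a (edgeR adjusted p = 0.210) and Kdm8 (edgeR adjusted p = 0.0683) and the mitochondrial deacetylase gene Sirt3 (edgeR adjusted p = 0.298).

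**Figure D1:**
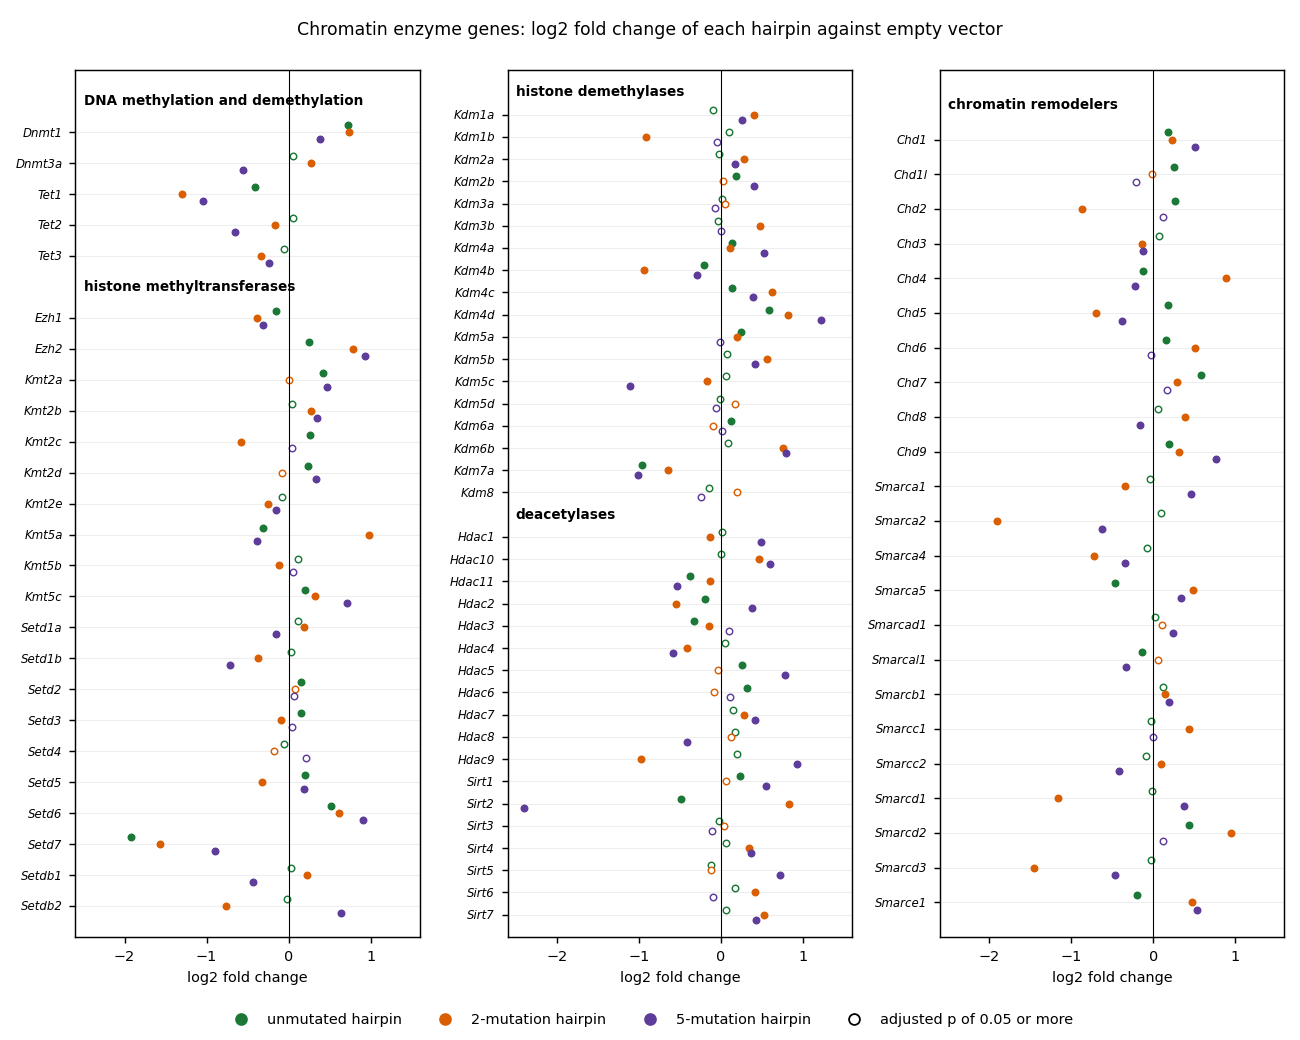
Log2 fold change of each of the 84 members in the unmutated, 2-mutation and 5-mutation hairpin libraries against the empty-vector libraries, grouped by role; filled points have an adjusted p below 0.05. Most points lie within 1 of 0, and the farthest are Sirt2 at −2.40 with the 5-mutation hairpin, Setd7 at −1.92 with the unmutated hairpin and Smarca2 at −1.91 with the 2-mutation hairpin.

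Each role held both members that rose and members that fell with every hairpin. Of all genes tested, 20.8% rose and 19.5% fell with the unmutated hairpin, 32.5% and 30.8% with the 2-mutation hairpin, and 28.4% and 26.5% with the 5-mutation hairpin, and the counts of each role, family and list below stand beside these shares. By role, 9 of 20 methyltransferase genes rose and 3 fell with the unmutated hairpin, 7 rose and 9 fell with the 2-mutation hairpin, and 8 rose and 7 fell with the 5-mutation hairpin. Among 18 demethylase genes, 6 rose and 2 fell, 9 rose and 4 fell, and 8 rose and 3 fell with the unmutated, 2-mutation and 5-mutation hairpins. Among 18 deacetylase genes, 3 rose and 4 fell, 6 rose and 6 fell, and 10 rose and 4 fell in the same order of hairpins. Among 23 remodeler genes, 8 rose and 4 fell, 12 rose and 8 fell, and 8 rose and 9 fell. Among the 5 genes of DNA methylation, 1 rose and 1 fell, 2 rose and 3 fell, and 1 rose and 4 fell.

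**Figure D2:**
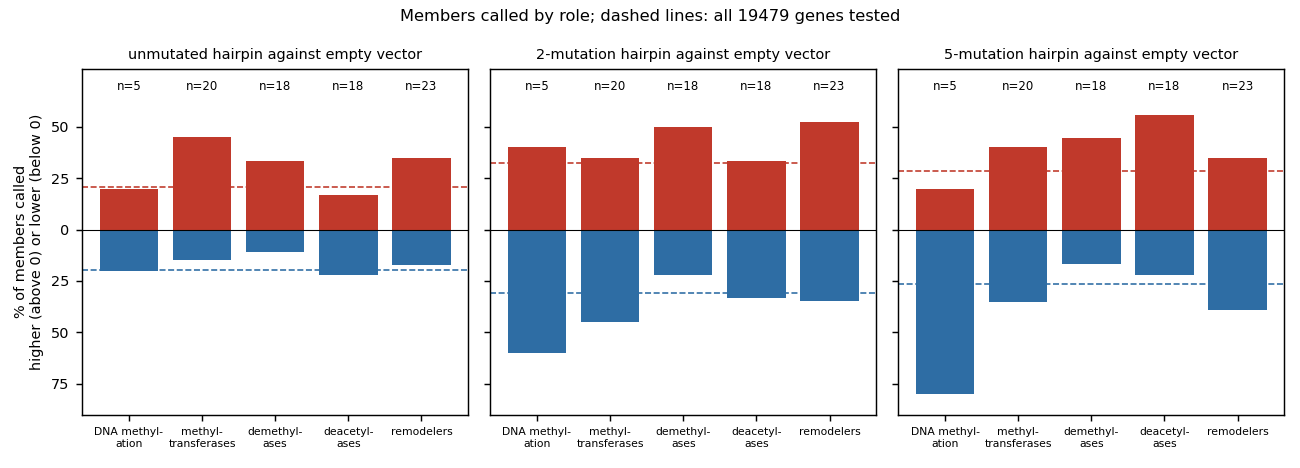
Share of members called higher (above 0) or lower (below 0) in each role, with the unmutated, 2-mutation and 5-mutation hairpins against the empty vector; dashed lines are the shares over all 19479 genes tested. No role moved in 1 direction only with any hairpin, and 4 of the 5 genes of DNA methylation fell with the 5-mutation hairpin.

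Tet genes fell with the mutated hairpins and Dnmt1 rose with every hairpin. All 3 Tet genes were lower with the 2-mutation and the 5-mutation hairpins, and Tet1 also with the unmutated hairpin. Dnmt1 is the enzyme that copies methylation onto new DNA. Tet1 had 68.1, 76.4, 73.5 and 80.03 CPM in the unmutated-hairpin libraries, 41.1, 39.3, 41.4 and 38.3 CPM in the 2-mutation libraries and 45.4, 52.3, 44.9 and 49.1 CPM in the 5-mutation libraries, against 102, 99.4, 104 and 90.4 CPM in the empty-vector libraries. Each of the 12 hairpin libraries lay below each empty-vector library. For Tet1, the log2 fold changes with the unmutated, 2-mutation and 5-mutation hairpins were −0.41 ± 0.06, −1.30 ± 0.06 and −1.04 ± 0.06 (SE; edgeR adjusted p = 4.06e-06, 1.17e-14 and 8.4e-13). Tet2 had 119, 137, 138 and 138 CPM in the unmutated-hairpin libraries, 114, 116, 116 and 110.1 CPM in the 2-mutation libraries and 79.1, 93.7, 75.2 and 78.2 CPM in the 5-mutation libraries, against 129.5, 133, 129 and 120.3 CPM in the empty-vector libraries. Tet2 was thus lowest with the 5-mutation hairpin, where its libraries lay below all the others. For Tet2, the log2 fold changes with the unmutated, 2-mutation and 5-mutation hairpins were 0.06 ± 0.06, −0.16 ± 0.06 and −0.65 ± 0.06 (SE; edgeR adjusted p = 0.49, 0.0198 and 5.26e-09). Tet3, the most abundant of the family per kilobase of exon, had 236, 237, 271 and 256 CPM in the unmutated-hairpin libraries, 206, 194, 207 and 215 CPM in the 2-mutation libraries and 220.0, 213, 233 and 214 CPM in the 5-mutation libraries, against 238, 259.9, 275 and 263 CPM in the empty-vector libraries. For Tet3, the log2 fold changes with the unmutated, 2-mutation and 5-mutation hairpins were −0.05 ± 0.05, −0.33 ± 0.05 and −0.23 ± 0.05 (SE; edgeR adjusted p = 0.458, 5.85e-06 and 0.000448).

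Dnmt1 had 132, 123, 127 and 128 CPM in the unmutated-hairpin libraries, 133, 123, 125 and 135 CPM in the 2-mutation libraries and 109, 93.9, 104 and 95.1 CPM in the 5-mutation libraries, against 76.6, 73.5, 78.9 and 80.1 CPM in the empty-vector libraries. No hairpin library overlapped an empty-vector library. For Dnmt1, the log2 fold changes with the unmutated, 2-mutation and 5-mutation hairpins were 0.72 ± 0.05, 0.74 ± 0.05 and 0.38 ± 0.05 (SE; edgeR adjusted p = 1.49e-10, 1.53e-11 and 9.03e-07). Dnmt3a, the enzyme that methylates new sites and is abundant in maturing neurons, went opposite ways with the mutated hairpins. Dnmt3a had 515, 523, 520.4 and 533 CPM in the unmutated-hairpin libraries, 601, 597, 624 and 624 CPM in the 2-mutation libraries and 333, 339.9, 347 and 349.6 CPM in the 5-mutation libraries, against 481, 505, 512 and 522 CPM in the empty-vector libraries. It was 1.21-fold higher with the 2-mutation hairpin and 1.48-fold lower with the 5-mutation hairpin than with the empty vector. For Dnmt3a, the log2 fold changes with the unmutated, 2-mutation and 5-mutation hairpins were 0.05 ± 0.04, 0.28 ± 0.04 and −0.56 ± 0.04 (SE; edgeR adjusted p = 0.292, 6.04e-07 and 1.22e-11). Dnmt1 is also used by dividing cells, and the summed level of 8 markers of progenitors and cycling cells was 56.6 to 68.6 CPM in the unmutated-hairpin libraries, 85.7 to 127 CPM in the 2-mutation libraries and 37.8 to 62.4 CPM in the 5-mutation libraries, against 42.4 to 51.3 CPM in the empty-vector libraries. Of these markers, 3 were higher and 0 lower with the unmutated hairpin, 3 higher and 0 lower with the 2-mutation hairpin, and 5 higher and 2 lower with the 5-mutation hairpin. That sum was highest with the 2-mutation hairpin, where Nes, a progenitor gene, made up most of it. Nes averaged 28.9, 65.2 and 15.3 CPM with the unmutated, 2-mutation and 5-mutation hairpins, against 20.7 CPM with the empty vector. The 5 cycling genes of the list were highest with the 5-mutation hairpin. Among them Mcm2, a replication licensing gene, and Top2a, a topoisomerase of dividing cells, had the highest levels. Mcm2 averaged 13.6, 10.8 and 21.4 CPM with the unmutated, 2-mutation and 5-mutation hairpins, against 7.21 CPM with the empty vector. Top2a averaged 2.23, 3.24 and 3.69 CPM with the unmutated, 2-mutation and 5-mutation hairpins, against 1.21 CPM with the empty vector. Mki67, Ccnb1 and Cdk1 averaged 2.25, 1.09 and 0.736 CPM with the 5-mutation hairpin, against 0.935, 0.363 and 0.176 CPM with the empty vector. The progenitor genes Sox2 and Pax6 averaged 7.47 and 1.30 CPM with the 5-mutation hairpin, against 13.4 and 2.18 CPM with the empty vector. Their part in the level of Dnmt1 was not tested.

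The histone methyltransferases were led by Setd7 (ENSMUSG00000037111.9, chr3:51515319-51560879, minus strand), which places a single methyl group on histone H3 and on other proteins. Setd7 had 29.9, 31.4, 33.3 and 35.1 CPM in the unmutated-hairpin libraries, 40.02, 40.3, 43.0 and 41.4 CPM in the 2-mutation libraries and 64.5, 66.1, 68.7 and 63.2 CPM in the 5-mutation libraries, against 115, 125, 125 and 126 CPM in the empty-vector libraries. The 4 groups did not overlap, in the order unmutated, 2-mutation, 5-mutation, empty vector from low to high. Setd7 was 3.77-fold, 2.97-fold and 1.87-fold lower with the unmutated, 2-mutation and 5-mutation hairpins than with the empty vector. For Setd7, the log2 fold changes with the unmutated, 2-mutation and 5-mutation hairpins were −1.92 ± 0.05, −1.57 ± 0.05 and −0.90 ± 0.05 (SE; edgeR adjusted p = 2.57e-17, 2.92e-17 and 4.68e-13). The exons of Setd7 share 131 bases with 5031434O11Rik on the opposite strand, which averaged 6.09, 6.89 and 5.08 CPM with the 3 hairpins, against 6.32 CPM with the empty vector.

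Setd6, which methylates the NF-kappaB subunit RelA, went the other way at a low level. Setd6 had 6.57, 6.20, 5.81 and 6.41 CPM in the unmutated-hairpin libraries, 7.79, 7.00, 6.16 and 5.73 CPM in the 2-mutation libraries and 8.17, 7.45, 9.17 and 7.83 CPM in the 5-mutation libraries, against 3.65, 4.88, 4.26 and 4.65 CPM in the empty-vector libraries. All hairpin libraries lay above all empty-vector libraries. For Setd6, the log2 fold changes with the unmutated, 2-mutation and 5-mutation hairpins were 0.52 ± 0.11, 0.61 ± 0.11 and 0.90 ± 0.11 (SE; edgeR adjusted p = 0.000589, 3.76e-05 and 2.6e-07). Setd1b, the catalytic subunit of a complex that methylates H3 at active promoters, was lower with the mutated hairpins. Setd1b had 62.4, 67.3, 68.3 and 75.3 CPM in the unmutated-hairpin libraries, 52.8, 48.5, 53.4 and 52.4 CPM in the 2-mutation libraries and 39.3, 43.0, 40.9 and 40.3 CPM in the 5-mutation libraries, against 61.7, 62.9, 67.8 and 74.9 CPM in the empty-vector libraries. Its unmutated-hairpin libraries overlapped those with the empty vector. For Setd1b, the log2 fold changes with the unmutated, 2-mutation and 5-mutation hairpins were 0.03 ± 0.06, −0.37 ± 0.06 and −0.71 ± 0.06 (SE; edgeR adjusted p = 0.724, 1.29e-05 and 1.4e-09). Setdb2, at a low level, averaged 3.12 ± 0.442, 1.86 ± 0.234 and 4.93 ± 0.0947 CPM with the unmutated, 2-mutation and 5-mutation hairpins, against 3.17 ± 0.234 CPM with the empty vector (SD, n = 4 each). Its 2-mutation minus 5-mutation difference was −1.40 ± 0.12 (log2, SE; edgeR adjusted p = 1.13e-09). The 12 methyltransferase genes outside the naming rule had log2 fold changes of −0.08 (Kmt2e) to 0.26 (Kmt2c) with the unmutated hairpin, −0.77 (Setdb2) to 0.27 (Kmt2b) with the 2-mutation hairpin and −0.43 (Setdb1) to 0.63 (Setdb2) with the 5-mutation hairpin.

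Among the Kmt genes, Kmt5a, which adds 1 methyl group to histone H4 and is known for its role in the cell cycle, stood out in the 2-mutation libraries. Kmt5a had 28.9, 29.5, 30.8 and 30.8 CPM in the unmutated-hairpin libraries, 76.7, 67.5, 72.5 and 76.5 CPM in the 2-mutation libraries and 29.9, 26.6, 28.5 and 29.0 CPM in the 5-mutation libraries, against 35.9, 37.2, 36.4 and 39.8 CPM in the empty-vector libraries. Kmt5a was 1.96-fold higher than with the empty vector there, and lower with the unmutated and 5-mutation hairpins. For Kmt5a, the log2 fold changes with the unmutated, 2-mutation and 5-mutation hairpins were −0.32 ± 0.05, 0.97 ± 0.05 and −0.39 ± 0.05 (SE; edgeR adjusted p = 3.31e-05, 1.48e-13 and 9.79e-07). Kmt5c, which completes methylation of the same lysine, was highest with the 5-mutation hairpin. Kmt5c had 21.9, 19.97, 20.5 and 21.6 CPM in the unmutated-hairpin libraries, 22.4, 23.0, 24.0 and 22.1 CPM in the 2-mutation libraries and 32.1, 29.9, 30.0 and 28.02 CPM in the 5-mutation libraries, against 20.7, 17.4, 17.7 and 17.5 CPM in the empty-vector libraries. For Kmt5c, the log2 fold changes with the unmutated, 2-mutation and 5-mutation hairpins were 0.20 ± 0.06, 0.32 ± 0.06 and 0.71 ± 0.06 (SE; edgeR adjusted p = 0.0126, 7.88e-05 and 1.06e-09). Kmt2a, a large H3 methyltransferase needed for development, was higher with the unmutated and 5-mutation hairpins. Kmt2a had 206, 231, 236 and 239.8 CPM in the unmutated-hairpin libraries, 170.0, 167, 177 and 171 CPM in the 2-mutation libraries and 227, 249, 232 and 232 CPM in the 5-mutation libraries, against 166, 169, 177 and 170.2 CPM in the empty-vector libraries. For Kmt2a, the log2 fold changes with the unmutated, 2-mutation and 5-mutation hairpins were 0.42 ± 0.05, 0.01 ± 0.05 and 0.46 ± 0.05 (SE; edgeR adjusted p = 1.51e-07, 0.917 and 1.26e-08). Its relative Kmt2c averaged 214 ± 14.99, 120.1 ± 1.79 and 184 ± 16.2 CPM with the unmutated, 2-mutation and 5-mutation hairpins, against 179.5 ± 6.63 CPM with the empty vector (SD, n = 4 each), with log2 fold changes of 0.26, −0.58 and 0.04 (edgeR adjusted p = 0.000699, 5.21e-09 and 0.599).

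Ezh1 and Ezh2 are alternative catalytic subunits of Polycomb repressive complex, Ezh2 that of dividing cells and Ezh1 that of resting ones. With every hairpin Ezh2 rose and Ezh1 fell. Ezh2 had 7.63, 8.16, 7.56 and 7.998 CPM in the unmutated-hairpin libraries, 11.1, 11.2, 11.1 and 12.0 CPM in the 2-mutation libraries and 11.9, 11.9, 13.5 and 13.0 CPM in the 5-mutation libraries, against 6.80, 6.19, 6.62 and 6.79 CPM in the empty-vector libraries. No hairpin library of Ezh2 overlapped an empty-vector library. For Ezh2, the log2 fold changes with the unmutated, 2-mutation and 5-mutation hairpins were 0.25 ± 0.07, 0.78 ± 0.07 and 0.93 ± 0.07 (SE; edgeR adjusted p = 0.00655, 1.05e-09 and 1.05e-10). Ezh1 had 40.6, 40.3, 38.5 and 40.01 CPM in the unmutated-hairpin libraries, 32.9, 35.0, 32.3 and 35.7 CPM in the 2-mutation libraries and 35.6, 36.0, 34.7 and 36.9 CPM in the 5-mutation libraries, against 45.2, 44.7, 46.9 and 41.0 CPM in the empty-vector libraries. For Ezh1, the log2 fold changes with the unmutated, 2-mutation and 5-mutation hairpins were −0.16 ± 0.05, −0.39 ± 0.05 and −0.31 ± 0.05 (SE; edgeR adjusted p = 0.00984, 2.09e-07 and 6.23e-06). The cycling markers given beside Dnmt1 apply here as well, and their part in the level of Ezh2 was not tested.

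Among the demethylases, Kdm7a, an eraser of repressive H3 methylation, was lower with every hairpin. Kdm7a had 21.7, 23.6, 27.9 and 29.6 CPM in the unmutated-hairpin libraries, 32.1, 30.6, 33.3 and 32.4 CPM in the 2-mutation libraries and 25.8, 27.8, 22.5 and 23.6 CPM in the 5-mutation libraries, against 46.3, 52.8, 53.9 and 47.5 CPM in the empty-vector libraries. The hairpin libraries spanned 21.7 to 33.3 CPM and all lay below the empty-vector libraries. For Kdm7a, the log2 fold changes with the unmutated, 2-mutation and 5-mutation hairpins were −0.96 ± 0.08, −0.64 ± 0.08 and −1.01 ± 0.08 (SE; edgeR adjusted p = 2.03e-08, 1.11e-06 and 3.77e-09). Kdm5c (ENSMUSG00000025332.14, chrX:152233020-152274535, plus strand), an X-linked eraser of H3 methylation at promoters whose mutation causes intellectual disability in humans, was 2.16-fold lower with the 5-mutation hairpin. Kdm5c had 145, 151, 159.9 and 157 CPM in the unmutated-hairpin libraries, 130.2, 127, 132 and 136 CPM in the 2-mutation libraries and 68.9, 67.7, 69.0 and 67.1 CPM in the 5-mutation libraries, against 144, 147, 148 and 150.0 CPM in the empty-vector libraries. Its unmutated-hairpin and empty-vector libraries overlapped. For Kdm5c, the log2 fold changes with the unmutated, 2-mutation and 5-mutation hairpins were 0.06 ± 0.04, −0.17 ± 0.04 and −1.11 ± 0.04 (SE; edgeR adjusted p = 0.22, 0.000542 and 3.72e-16). Its Y-linked counterpart Kdm5d averaged 21.4 ± 0.667, 24.1 ± 3.19 and 20.5 ± 0.683 CPM with the unmutated, 2-mutation and 5-mutation hairpins, against 21.5 ± 2.27 CPM with the empty vector (SD, n = 4 each), and none of these differences was called (edgeR adjusted p = 0.957, 0.0643 and 0.522).

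Kdm6b, a demethylase that opposes Polycomb and is induced by signals including neuronal activity, was higher with both mutated hairpins. Kdm6b had 87.4, 84.2, 89.6 and 89.4 CPM in the unmutated-hairpin libraries, 140.0, 134, 141 and 142 CPM in the 2-mutation libraries and 145, 143, 148 and 138 CPM in the 5-mutation libraries, against 81.4, 75.2, 85.7 and 88.8 CPM in the empty-vector libraries. The mutated-hairpin libraries lay above those with the empty vector. For Kdm6b, the log2 fold changes with the unmutated, 2-mutation and 5-mutation hairpins were 0.08 ± 0.05, 0.75 ± 0.05 and 0.80 ± 0.05 (SE; edgeR adjusted p = 0.163, 2.36e-12 and 1.65e-12). Kdm6a, its X-linked relative, averaged 44.0 ± 2.04, 38.0 ± 1.92 and 40.7 ± 1.66 CPM with the unmutated, 2-mutation and 5-mutation hairpins, against 40.5 ± 1.57 CPM with the empty vector (SD, n = 4 each), with log2 fold changes of 0.12, −0.09 and 0.01 (edgeR adjusted p = 0.0497, 0.105 and 0.906). Kdm4b, an eraser of H3 methylation in heterochromatin, was lowest with the 2-mutation hairpin. Kdm4b had 124, 117, 116 and 124 CPM in the unmutated-hairpin libraries, 73.0, 73.6, 72.5 and 70.7 CPM in the 2-mutation libraries and 119, 114, 109.9 and 110.5 CPM in the 5-mutation libraries, against 143, 139, 138 and 136 CPM in the empty-vector libraries. For Kdm4b, the log2 fold changes with the unmutated, 2-mutation and 5-mutation hairpins were −0.21 ± 0.04, −0.94 ± 0.04 and −0.29 ± 0.04 (SE; edgeR adjusted p = 0.000141, 3.12e-15 and 7.38e-07). Kdm1b, a flavin-dependent demethylase, also fell there, to 16.6 ± 0.708 CPM against 31.2 ± 1.71 CPM with the empty vector (log2 fold change −0.91 ± 0.05, SE, edgeR adjusted p = 4.24e-13). Its exons share 505 bases with Dek on the opposite strand, which had a log2 fold change of 0.33 in that comparison. Kdm4d, expressed mainly in testis, lay at 1.63 to 4.28 CPM over the 16 libraries, too low for the naming rule, and its rise with the 5-mutation hairpin was the largest of any member against the empty vector. Kdm4d had 2.94, 2.74, 2.77 and 2.30 CPM in the unmutated-hairpin libraries, 3.29, 3.30, 3.48 and 2.60 CPM in the 2-mutation libraries and 3.86, 4.26, 4.28 and 4.26 CPM in the 5-mutation libraries, against 1.69, 2.11, 1.74 and 1.63 CPM in the empty-vector libraries. All hairpin libraries lay above the empty-vector libraries. For Kdm4d, the log2 fold changes with the unmutated, 2-mutation and 5-mutation hairpins were 0.58 ± 0.13, 0.82 ± 0.13 and 1.22 ± 0.13 (SE; edgeR adjusted p = 0.00117, 9.68e-06 and 4.17e-08). The 14 demethylase genes outside the naming rule had log2 fold changes of −0.15 (Kdm8) to 0.58 (Kdm4d) with the unmutated hairpin, −0.91 (Kdm1b) to 0.82 (Kdm4d) with the 2-mutation hairpin and −0.24 (Kdm8) to 1.22 (Kdm4d) with the 5-mutation hairpin.

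**Figure D3:**
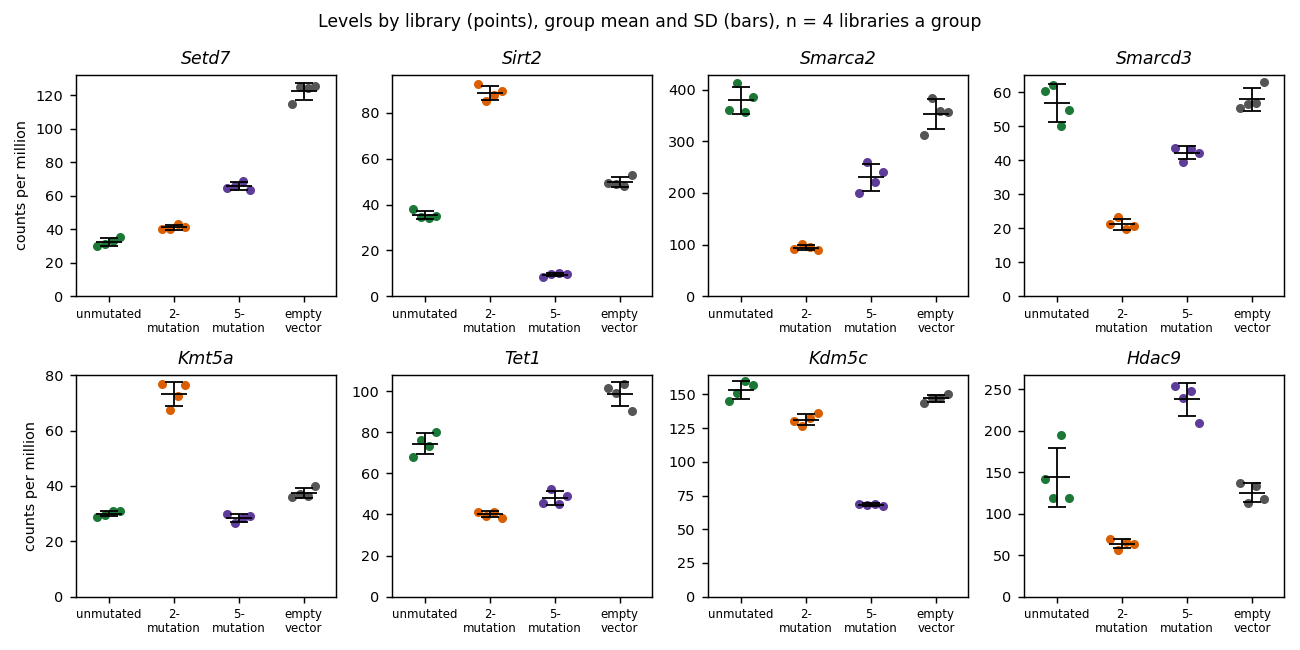
CPM of 8 members in each library (points) with the group mean and SD (bars), n = 4 libraries a group, for the unmutated, 2-mutation and 5-mutation hairpins and the empty vector. Setd7 and Tet1 were lower in all hairpin libraries than in all empty-vector libraries, Sirt2 was highest with the 2-mutation hairpin and lowest with the 5-mutation hairpin, and Hdac9 moved in opposite directions with the mutated hairpins.

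Sirt2 (ENSMUSG00000015149.14, chr7:28766735-28788661, plus strand), an NAD-dependent deacetylase of tubulin and histones that is abundant in myelin-forming cells, had the widest range of any member between groups. Sirt2 had 37.9, 34.8, 34.3 and 35.1 CPM in the unmutated-hairpin libraries, 92.6, 85.2, 87.6 and 89.6 CPM in the 2-mutation libraries and 8.52, 9.71, 10.1 and 9.53 CPM in the 5-mutation libraries, against 49.5, 49.0, 48.2 and 52.9 CPM in the empty-vector libraries. No 2 groups overlapped, and the order from low to high was 5-mutation, unmutated, empty vector, 2-mutation. Sirt2 was 5.28-fold lower with the 5-mutation hairpin and 1.78-fold higher with the 2-mutation hairpin than with the empty vector. For Sirt2, the log2 fold changes with the unmutated, 2-mutation and 5-mutation hairpins were −0.49 ± 0.05, 0.83 ± 0.05 and −2.40 ± 0.05 (SE; edgeR adjusted p = 4.72e-08, 1.18e-12 and 3.63e-19). The 6 testable markers of the oligodendrocyte lineage had a summed level of 76.8 to 95.7 CPM in the unmutated-hairpin libraries, 39.5 to 45.0 CPM in the 2-mutation libraries and 76.7 to 94.0 CPM in the 5-mutation libraries, against 50.5 to 61.6 CPM in the empty-vector libraries. Mbp, a myelin gene, made up most of that sum with the 5-mutation hairpin. It averaged 36.5, 23.5 and 68.5 CPM with the unmutated, 2-mutation and 5-mutation hairpins, against 25.8 CPM with the empty vector. The lineage factors Olig1 and Olig2 were lower with both mutated hairpins. Olig1 averaged 28.7, 7.42 and 9.35 CPM with the unmutated, 2-mutation and 5-mutation hairpins, against 18.2 CPM with the empty vector. Olig2 averaged 8.16, 3.57 and 2.05 CPM with the unmutated, 2-mutation and 5-mutation hairpins, against 5.21 CPM with the empty vector. The part of these cells in the level of Sirt2 was not tested. Sirt2 exons share 42 bases with Nfkbib on the opposite strand. Nfkbib averaged 14.9, 7.17 and 14.6 CPM with the unmutated, 2-mutation and 5-mutation hairpins, against 14.4 CPM with the empty vector. Sirt5, a mitochondrial enzyme that removes succinyl groups, was higher with the 5-mutation hairpin. Sirt5 had 10.6, 10.8, 8.66 and 9.03 CPM in the unmutated-hairpin libraries, 10.1, 8.76, 9.93 and 10.2 CPM in the 2-mutation libraries and 17.4, 15.6, 18.3 and 18.5 CPM in the 5-mutation libraries, against 11.3, 10.2, 9.80 and 11.1 CPM in the empty-vector libraries. For Sirt5, the log2 fold changes with the unmutated, 2-mutation and 5-mutation hairpins were −0.12 ± 0.08, −0.12 ± 0.08 and 0.72 ± 0.08 (SE; edgeR adjusted p = 0.293, 0.22 and 1.05e-07).

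Of the class IIa deacetylases, which move between nucleus and cytoplasm with neuronal activity, Hdac9, Hdac5 and Hdac7 were higher with the 5-mutation hairpin and Hdac4 lower. Hdac9 had 141, 119, 195 and 119 CPM in the unmutated-hairpin libraries, 69.0, 56.7, 66.2 and 63.0 CPM in the 2-mutation libraries and 254, 240.2, 248 and 209.8 CPM in the 5-mutation libraries, against 137, 113, 134 and 118 CPM in the empty-vector libraries. Hdac9 was 1.97-fold lower with the 2-mutation hairpin and 1.90-fold higher with the 5-mutation hairpin, and the unmutated-hairpin libraries scattered from 119 to 195 CPM around the empty-vector values. For Hdac9, the log2 fold changes with the unmutated, 2-mutation and 5-mutation hairpins were 0.20 ± 0.14, −0.98 ± 0.14 and 0.92 ± 0.14 (SE; edgeR adjusted p = 0.294, 3e-05 and 5.65e-05). Hdac5 had 149, 138, 148 and 136 CPM in the unmutated-hairpin libraries, 120.3, 113, 117 and 118 CPM in the 2-mutation libraries and 206, 197, 228 and 191 CPM in the 5-mutation libraries, against 119.6, 119, 122 and 117 CPM in the empty-vector libraries. For Hdac5, the log2 fold changes with the unmutated, 2-mutation and 5-mutation hairpins were 0.26 ± 0.05, −0.03 ± 0.05 and 0.78 ± 0.05 (SE; edgeR adjusted p = 0.00017, 0.612 and 6.03e-12). Hdac4 averaged 161 ± 8.29, 116 ± 4.45 and 104 ± 3.71 CPM with the unmutated, 2-mutation and 5-mutation hairpins, against 155 ± 16.6 CPM with the empty vector (SD, n = 4 each), with log2 fold changes of 0.05, −0.42 and −0.58 (edgeR adjusted p = 0.518, 2.43e-06 and 3.01e-08). Hdac7 averaged 11.5 ± 0.592, 12.6 ± 0.802 and 13.8 ± 1.38 CPM with the unmutated, 2-mutation and 5-mutation hairpins, against 10.4 ± 0.753 CPM with the empty vector (SD, n = 4 each), with log2 fold changes of 0.15, 0.28 and 0.41 (edgeR adjusted p = 0.143, 0.00322 and 7.9e-05). Hdac11, the only class IV enzyme and one of the more abundant members per kilobase, was lower with every hairpin. Hdac11 had 104, 106, 96.7 and 99.7 CPM in the unmutated-hairpin libraries, 121, 121, 117 and 122 CPM in the 2-mutation libraries and 93.2, 86.7, 94.3 and 92.4 CPM in the 5-mutation libraries, against 136, 130.1, 135 and 128 CPM in the empty-vector libraries. For Hdac11, the log2 fold changes with the unmutated, 2-mutation and 5-mutation hairpins were −0.38 ± 0.04, −0.14 ± 0.04 and −0.53 ± 0.04 (SE; edgeR adjusted p = 7.69e-08, 0.00464 and 1.61e-10). Exons of opposite-strand genes lie over 17.9% of the exon bases of Hdac11 and 22.4% of those of Hdac4. Their part in these levels was not tested. Of the class I enzymes, Hdac2 averaged 89.2 ± 2.34, 70.3 ± 2.06 and 133 ± 9.65 CPM with the unmutated, 2-mutation and 5-mutation hairpins, against 102 ± 3.26 CPM with the empty vector, and Hdac1 averaged 20.8 ± 1.34, 18.9 ± 0.632 and 29.0 ± 1.31 CPM with the unmutated, 2-mutation and 5-mutation hairpins, against 20.7 ± 0.964 CPM with the empty vector (SD, n = 4 each). Both were higher with the 5-mutation hairpin, by 0.38 ± 0.05 and 0.49 ± 0.05 on the log2 scale (SE; edgeR adjusted p = 3.41e-07 and 1.07e-07). Hdac8, of the same class, was lower there and Hdac3 was not called, with log2 fold changes of −0.41 ± 0.11 and 0.10 ± 0.05 (SE; edgeR adjusted p = 0.00277 and 0.1). By family, 2 of 11 Hdac genes rose and 3 fell with the unmutated hairpin, 2 rose and 6 fell with the 2-mutation hairpin, and 6 rose and 3 fell with the 5-mutation hairpin. Of 7 Sirt genes, 1 rose and 1 fell, 4 rose and 0 fell, and 4 rose and 1 fell in that order of hairpins. The 13 deacetylase genes outside the naming rule had log2 fold changes of −0.32 (Hdac3) to 0.32 (Hdac6) with the unmutated hairpin, −0.54 (Hdac2) to 0.53 (Sirt7) with the 2-mutation hairpin and −0.58 (Hdac4) to 0.59 (Hdac10) with the 5-mutation hairpin.

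The ATPases of the BAF complex fell with the mutated hairpins. Smarca2 (ENSMUSG00000024921.17, chr19:26605050-26778322, plus strand) and Smarca4 are its alternative motors. Smarca2 had 361, 413, 356 and 386 CPM in the unmutated-hairpin libraries, 92.4, 100.4, 94.5 and 89.6 CPM in the 2-mutation libraries and 199.8, 261, 220.2 and 239.7 CPM in the 5-mutation libraries, against 313, 384, 359 and 356 CPM in the empty-vector libraries. The 2-mutation libraries were 3.75-fold below the empty vector, and the unmutated-hairpin libraries overlapped it. For Smarca2, the log2 fold changes with the unmutated, 2-mutation and 5-mutation hairpins were 0.10 ± 0.07, −1.91 ± 0.08 and −0.62 ± 0.07 (SE; edgeR adjusted p = 0.295, 7.97e-14 and 7.98e-07). Smarca4 averaged 292 ± 6.31, 186 ± 3.25 and 242 ± 15.3 CPM with the unmutated, 2-mutation and 5-mutation hairpins, against 307 ± 12.5 CPM with the empty vector (SD, n = 4 each). For Smarca4, the log2 fold changes with the unmutated, 2-mutation and 5-mutation hairpins were −0.07 ± 0.04, −0.72 ± 0.04 and −0.34 ± 0.04 (SE; edgeR adjusted p = 0.199, 2.3e-12 and 5.36e-07). With the mutated hairpins the direction was shared by both motors, and the size was larger in Smarca2.

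The Smarcd genes encode 3 alternative 60-kilodalton subunits of BAF, of which Smarcd3 is typical of neurons and muscle. Smarcd3 had 60.4, 62.0, 50.05 and 54.8 CPM in the unmutated-hairpin libraries, 21.2, 23.2, 19.6 and 20.5 CPM in the 2-mutation libraries and 43.7, 39.5, 43.4 and 42.0 CPM in the 5-mutation libraries, against 55.5, 56.5, 56.7 and 63.0 CPM in the empty-vector libraries. For Smarcd3, the log2 fold changes with the unmutated, 2-mutation and 5-mutation hairpins were −0.03 ± 0.06, −1.45 ± 0.07 and −0.46 ± 0.06 (SE; edgeR adjusted p = 0.761, 2.11e-14 and 2.09e-06). Of the exon bases of Smarcd3, 50.1% lie opposite Chpf2 or Mir671, and Chpf2 averaged 57.1, 76.0 and 67.5 CPM with the unmutated, 2-mutation and 5-mutation hairpins, against 53.6 CPM with the empty vector. The part of those reads in the level of Smarcd3 was not tested. Smarcd1 had 98.6, 92.2, 94.97 and 96.7 CPM in the unmutated-hairpin libraries, 41.8, 42.7, 44.1 and 44.5 CPM in the 2-mutation libraries and 128, 117, 126 and 126 CPM in the 5-mutation libraries, against 96.4, 94.5, 93.0 and 101 CPM in the empty-vector libraries. Smarcd1 was 2.23-fold lower with the 2-mutation hairpin and 1.29-fold higher with the 5-mutation hairpin. For Smarcd1, the log2 fold changes with the unmutated, 2-mutation and 5-mutation hairpins were −0.01 ± 0.04, −1.155 ± 0.04 and 0.37 ± 0.04 (SE; edgeR adjusted p = 0.868, 3.69e-16 and 6.07e-08). Exons of opposite-strand genes lie over 12.7% of its exon bases, and their part in its level was not tested. Smarcd2 had 12.4, 11.3, 10.0 and 11.6 CPM in the unmutated-hairpin libraries, 16.9, 15.8, 16.3 and 15.8 CPM in the 2-mutation libraries and 9.44, 9.06, 9.37 and 8.46 CPM in the 5-mutation libraries, against 8.76, 8.99, 8.02 and 7.72 CPM in the empty-vector libraries. Smarcd2, the least abundant of the 3 per kilobase over all libraries, was highest in the 2-mutation libraries. There its level per kilobase of exon exceeded that of Smarcd3 (4.51 against 4.13 CPM per kilobase). For Smarcd2, the log2 fold changes with the unmutated, 2-mutation and 5-mutation hairpins were 0.44 ± 0.07, 0.95 ± 0.07 and 0.12 ± 0.07 (SE; edgeR adjusted p = 3.78e-05, 8.97e-11 and 0.172). Smarce1, a DNA-binding subunit of the same complex, was higher with the mutated hairpins and lower with the unmutated one. Smarce1 had 46.0, 45.6, 47.3 and 43.3 CPM in the unmutated-hairpin libraries, 71.3, 71.7, 71.8 and 74.5 CPM in the 2-mutation libraries and 77.3, 69.0, 80.8 and 75.7 CPM in the 5-mutation libraries, against 52.2, 53.7, 49.8 and 53.2 CPM in the empty-vector libraries. For Smarce1, the log2 fold changes with the unmutated, 2-mutation and 5-mutation hairpins were −0.20 ± 0.05, 0.47 ± 0.05 and 0.54 ± 0.05 (SE; edgeR adjusted p = 0.00168, 7.65e-09 and 1.5e-09). Smarca5, the motor of ISWI complexes, followed the same directions. Smarca5 had 57.0, 57.7, 58.8 and 59.8 CPM in the unmutated-hairpin libraries, 110.0, 109.7, 112 and 116 CPM in the 2-mutation libraries and 97.7, 98.8, 101 and 109 CPM in the 5-mutation libraries, against 77.9, 80.3, 80.7 and 82.1 CPM in the empty-vector libraries. No hairpin library of Smarca5 overlapped an empty-vector library. For Smarca5, the log2 fold changes with the unmutated, 2-mutation and 5-mutation hairpins were −0.46 ± 0.04, 0.48 ± 0.04 and 0.34 ± 0.04 (SE; edgeR adjusted p = 6.28e-09, 4.71e-10 and 1.78e-07).

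Among the Chd remodelers, 7 of 10 rose and 1 fell with the unmutated hairpin, 6 rose and 3 fell with the 2-mutation hairpin, and 2 rose and 4 fell with the 5-mutation hairpin. Over all genes tested the shares higher and lower were 20.8% and 19.5%, 32.5% and 30.8%, and 28.4% and 26.5% in that order of hairpins. Chd3, Chd4 and Chd5 are alternative motors of the NuRD corepressor complex, and Chd5 is largely restricted to the nervous system. Chd4 had 198, 202, 179 and 206 CPM in the unmutated-hairpin libraries, 398, 379, 397 and 403 CPM in the 2-mutation libraries and 191, 171, 183 and 186 CPM in the 5-mutation libraries, against 206, 211, 209.7 and 224 CPM in the empty-vector libraries. Chd4 was 1.85-fold higher in the 2-mutation libraries. For Chd4, the log2 fold changes with the unmutated, 2-mutation and 5-mutation hairpins were −0.12 ± 0.05, 0.89 ± 0.05 and −0.22 ± 0.05 (SE; edgeR adjusted p = 0.0436, 1.63e-13 and 0.000289). Chd5 averaged 387 ± 8.94, 209 ± 7.84 and 261 ± 14.4 CPM with the unmutated, 2-mutation and 5-mutation hairpins, against 339.9 ± 10.4 CPM with the empty vector (SD, n = 4 each). For Chd5, the log2 fold changes with the unmutated, 2-mutation and 5-mutation hairpins were 0.19 ± 0.04, −0.70 ± 0.04 and −0.38 ± 0.04 (SE; edgeR adjusted p = 0.00104, 2.56e-12 and 8.05e-08). Chd4 and Chd5 thus moved apart in the 2-mutation libraries. Chd3 averaged 660.0 ± 34.4, 572 ± 18.2 and 577 ± 10.5 CPM with the unmutated, 2-mutation and 5-mutation hairpins, against 627 ± 19.3 CPM with the empty vector (SD, n = 4 each).

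Chd2, whose loss of function causes childhood epilepsy in humans, was lowest with the 2-mutation hairpin. Chd2 had 91.1, 97.4, 97.0 and 95.7 CPM in the unmutated-hairpin libraries, 41.4, 43.8, 46.3 and 42.0 CPM in the 2-mutation libraries and 83.4, 96.2, 82.3 and 81.9 CPM in the 5-mutation libraries, against 81.2, 79.1, 83.5 and 73.1 CPM in the empty-vector libraries. For Chd2, the log2 fold changes with the unmutated, 2-mutation and 5-mutation hairpins were 0.27 ± 0.05, −0.87 ± 0.05 and 0.12 ± 0.05 (SE; edgeR adjusted p = 0.000358, 5.25e-12 and 0.0672). Of its exon bases, 18.4% are shared with the same-strand transcript 1810026B05Rik. Chd7, the gene of CHARGE syndrome in humans, had the lowest level per kilobase of all members. Chd7 had 7.60, 10.0, 7.15 and 9.11 CPM in the unmutated-hairpin libraries, 6.55, 7.02, 7.08 and 7.24 CPM in the 2-mutation libraries and 6.52, 5.98, 7.01 and 6.09 CPM in the 5-mutation libraries, against 5.28, 6.55, 5.17 and 5.76 CPM in the empty-vector libraries. For Chd7, the log2 fold changes with the unmutated, 2-mutation and 5-mutation hairpins were 0.58 ± 0.10, 0.30 ± 0.10 and 0.17 ± 0.11 (SE; edgeR adjusted p = 0.000117, 0.0179 and 0.183). Chd9 rose with every hairpin and most with the 5-mutation hairpin. Chd9 had 94.3, 108, 118 and 109 CPM in the unmutated-hairpin libraries, 119.6, 112, 117 and 119 CPM in the 2-mutation libraries and 152, 166, 159.6 and 160.0 CPM in the 5-mutation libraries, against 91.3, 95.8, 96.5 and 91.9 CPM in the empty-vector libraries. For Chd9, the log2 fold changes with the unmutated, 2-mutation and 5-mutation hairpins were 0.19 ± 0.05, 0.32 ± 0.05 and 0.76 ± 0.05 (SE; edgeR adjusted p = 0.00463, 1.09e-05 and 2.6e-11). The 13 remodeler genes outside the naming rule had log2 fold changes of −0.13 (Smarcal1) to 0.25 (Chd1l) with the unmutated hairpin, −0.72 (Smarca4) to 0.51 (Chd6) with the 2-mutation hairpin and −0.41 (Smarcc2) to 0.51 (Chd1) with the 5-mutation hairpin.

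The hairpins also differed from one another. Between the unmutated and the 2-mutation hairpin, 35 members were higher (41.7%, against 31.2% of all genes) and 30 lower (35.7%, against 31.5%) with the unmutated one. Between the unmutated and the 5-mutation hairpin, 33 were higher (39.3%, against 26.8%) and 33 lower (39.3%, against 28.5%). Between the 2-mutation and the 5-mutation hairpin, 30 were higher (35.7%, against 32.3%) and 36 lower (42.9%, against 33.6%) with the 2-mutation one. These backgrounds are over all genes tested, many of them with lower counts than the members. Shares among genes of a matched level were not computed between hairpins, so a higher share of members may reflect their level. Sirt2 differed by −1.32 ± 0.05 (unmutated minus 2-mutation), 1.91 ± 0.05 (unmutated minus 5-mutation) and 3.23 ± 0.05 (2-mutation minus 5-mutation) on the log2 scale (SE; edgeR adjusted p = 5.55e-16, 1.61e-17 and 1.4e-21). Smarca2 differed by 2.01 ± 0.08 (unmutated minus 2-mutation), 0.72 ± 0.07 (unmutated minus 5-mutation) and −1.29 ± 0.08 (2-mutation minus 5-mutation) on the log2 scale (SE; edgeR adjusted p = 3.63e-14, 1.04e-07 and 1.64e-11). Setd7 differed by −0.34 ± 0.05 (unmutated minus 2-mutation), −1.02 ± 0.05 (unmutated minus 5-mutation) and −0.67 ± 0.05 (2-mutation minus 5-mutation) on the log2 scale (SE; edgeR adjusted p = 2.58e-06, 1.14e-13 and 3.72e-11). The difference between the 2-mutation and 5-mutation hairpins in Sirt2 was the largest of any member in any of the 6 comparisons. Hdac9 differed by 1.17 ± 0.14 (unmutated minus 2-mutation), −0.73 ± 0.14 (unmutated minus 5-mutation) and −1.90 ± 0.14 (2-mutation minus 5-mutation) on the log2 scale (SE; edgeR adjusted p = 4.74e-06, 0.00045 and 2.51e-08). Kmt5a differed by −1.29 ± 0.05 (unmutated minus 2-mutation), 0.07 ± 0.05 (unmutated minus 5-mutation) and 1.36 ± 0.05 (2-mutation minus 5-mutation) on the log2 scale (SE; edgeR adjusted p = 1.44e-15, 0.234 and 3.92e-16). Smarcd1 differed by 1.14 ± 0.04 (unmutated minus 2-mutation), −0.38 ± 0.04 (unmutated minus 5-mutation) and −1.53 ± 0.04 (2-mutation minus 5-mutation) on the log2 scale (SE; edgeR adjusted p = 4.1e-16, 3.87e-08 and 2.38e-18). Hdac9 was highest with the 5-mutation hairpin, Kmt5a with the 2-mutation hairpin, and Smarcd1 was lowest with the 2-mutation hairpin. All 5 genes of DNA methylation were higher with the unmutated than with the 5-mutation hairpin, and 13 of 23 remodelers were higher and 7 lower in that comparison.

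Pairs of paralogs were set against each other per kilobase of exon, a description with no test. Of the pairs given here, Chd4 against Chd5, Smarcd1 against Smarcd3 and Kdm5c against Kdm5d were picked from their larger groups with the values known. The Smarca2 to Smarca4 ratio was 0.589 with the unmutated hairpin (range 0.554 to 0.635), 0.230 with the 2-mutation hairpin (0.216 to 0.250) and 0.435 with the 5-mutation hairpin (0.356 to 0.531), against 0.524 with the empty vector (0.460 to 0.591). The Chd4 to Chd5 ratio was 0.606 with the unmutated hairpin (range 0.536 to 0.647), 2.25 with the 2-mutation hairpin (2.1998 to 2.29) and 0.837 with the 5-mutation hairpin (0.781 to 0.887), against 0.749 with the empty vector (0.718 to 0.780). Chd5 was thus the higher of the pair in every library except those of the 2-mutation hairpin, where Chd4 was. The Ezh1 to Ezh2 ratio was 4.57 with the unmutated hairpin (range 4.44 to 4.78), 2.68 with the 2-mutation hairpin (2.62 to 2.80) and 2.57 with the 5-mutation hairpin (2.32 to 2.71), against 6.05 with the empty vector (5.42 to 6.47), so Ezh1 was the higher in every library. The Kdm6a to Kdm6b ratio averaged 0.417, 0.226 and 0.235 with the unmutated, 2-mutation and 5-mutation hairpins, against 0.408 with the empty vector. The ISWI motors Smarca1 and Smarca5 had a mean ratio of 1.35, 0.567 and 1.09 with the unmutated, 2-mutation and 5-mutation hairpins, against 1.01 with the empty vector. For Smarcc1 to Smarcc2, the scaffold subunits of BAF, it was 0.408, 0.491 and 0.519 with the unmutated, 2-mutation and 5-mutation hairpins, against 0.389 with the empty vector. For Smarcd1 to Smarcd3 it was 2.16, 2.61 and 3.76 with the unmutated, 2-mutation and 5-mutation hairpins, against 2.12 with the empty vector, for Hdac1 to Hdac2 0.303, 0.349 and 0.284 with the unmutated, 2-mutation and 5-mutation hairpins, against 0.262 with the empty vector, and for Kdm5c to Kdm5d 15.3, 11.7 and 7.10 with the unmutated, 2-mutation and 5-mutation hairpins, against 14.8 with the empty vector.

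**Figure D4:**
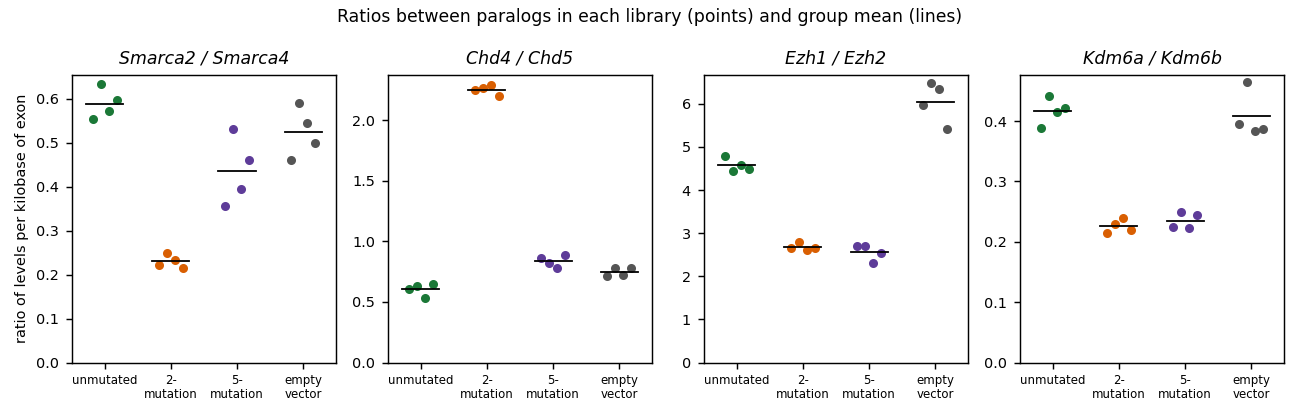
Ratio of the levels per kilobase of exon for 4 pairs of paralogs in each library (points), with the group mean (line), for the unmutated, 2-mutation and 5-mutation hairpins and the empty vector. The Chd4 to Chd5 ratio exceeded 1 in the 2-mutation libraries only, where it lay between 2.1998 and 2.29, and the Smarca2 to Smarca4 ratio was lowest there, between 0.216 and 0.250.

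The partners of these enzymes were counted in lists taken from known complexes. Of all genes tested, 20.8% rose and 19.5% fell with the unmutated hairpin, 32.5% and 30.8% with the 2-mutation hairpin, and 28.4% and 26.5% with the 5-mutation hairpin. Of the BAF and PBAF subunits outside the Smarc family, 5 were higher and 6 lower with the unmutated hairpin, 8 higher and 6 lower with the 2-mutation hairpin, and 7 higher and 6 lower with the 5-mutation hairpin, of 19 tested. Among them Phf10, a subunit of PBAF typical of progenitors, averaged 134 ± 11.3, 51.1 ± 1.84 and 48.7 ± 0.923 CPM with the unmutated, 2-mutation and 5-mutation hairpins, against 94.1 ± 3.41 CPM with the empty vector (SD, n = 4 each), with log2 fold changes of 0.51 ± 0.05, −0.88 ± 0.05 and −0.95 ± 0.05 (SE; edgeR adjusted p = 3.18e-08, 1.05e-12 and 6.08e-13). Dpf3, a neuronal BAF subunit, had 1.37, 1.86, 1.91 and 2.04 CPM in the 2-mutation libraries against 6.20, 6.31, 6.54 and 6.48 CPM in the empty-vector libraries (log2 fold change −1.83 ± 0.11, SE, edgeR adjusted p = 4.06e-12). Of the partners of the COMPASS methyltransferases, 4 were higher and 1 lower with the unmutated hairpin, 7 higher and 2 lower with the 2-mutation hairpin, and 3 higher and 2 lower with the 5-mutation hairpin, of 9 tested. Dpy30, a core subunit there, rose by 0.75 ± 0.07 with the 2-mutation hairpin (log2, SE; edgeR adjusted p = 2.76e-09). Of the Polycomb partners, 12 were higher and 3 lower with the unmutated hairpin, 11 higher and 6 lower with the 2-mutation hairpin, and 9 higher and 6 lower with the 5-mutation hairpin, of 23 tested. Mtf2, which recruits the Ezh complex to DNA, had 79.2, 91.5, 82.3 and 92.0 CPM in the 5-mutation libraries against 36.7, 40.3, 39.9 and 38.1 CPM in the empty-vector libraries (log2 fold change 1.153 ± 0.06, SE, edgeR adjusted p = 1.1e-13). Jarid2, another Ezh partner, rose by 0.89 ± 0.04 with the 2-mutation hairpin (log2, SE; edgeR adjusted p = 9.41e-14).

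Of the readers of DNA methylation and related proteins, 3 were higher and 1 lower with the unmutated hairpin, 7 higher and 2 lower with the 2-mutation hairpin, and 4 higher and 3 lower with the 5-mutation hairpin, of 11 tested. Of the corepressor subunits of NuRD, CoREST, Sin3 and NCoR, 6 were higher and 2 lower with the unmutated hairpin, 6 higher and 8 lower with the 2-mutation hairpin, and 6 higher and 9 lower with the 5-mutation hairpin, of 20 tested. Tbl1xr1, a subunit of NCoR, had 56.1, 53.8, 60.0 and 51.5 CPM in the 2-mutation libraries against 111, 117, 127 and 126 CPM in the empty-vector libraries (log2 fold change −1.12 ± 0.05, SE, edgeR adjusted p = 5.49e-14). Of the ISWI and INO80 partners, 5 were higher and 3 lower with the unmutated hairpin, 4 higher and 4 lower with the 2-mutation hairpin, and 8 higher and 2 lower with the 5-mutation hairpin, of 12 tested. The remodeler Atrx fell by 1.08 ± 0.07 with the 2-mutation hairpin (log2, SE; edgeR adjusted p = 1.27e-10). Of the histone acetyltransferases, which oppose the Hdac enzymes, 4 were higher and 0 lower with the unmutated hairpin, 6 higher and 2 lower with the 2-mutation hairpin, and 4 higher and 3 lower with the 5-mutation hairpin, of 13 tested. Ncoa2 rose by 0.55 ± 0.05 with the unmutated hairpin and fell by 0.77 ± 0.05 with the 5-mutation hairpin (log2, SE; edgeR adjusted p = 2.62e-09 and 4.3e-12). Of the other histone methyltransferases and demethylases, 8 were higher and 9 lower with the unmutated hairpin, 15 higher and 6 lower with the 2-mutation hairpin, and 13 higher and 7 lower with the 5-mutation hairpin, of 25 tested. Prmt8, an arginine methyltransferase found mainly in brain, had 37.4, 33.96, 39.4 and 36.4 CPM in the unmutated-hairpin libraries against 110.0, 101, 104 and 98.3 CPM in the empty-vector libraries (log2 fold change −1.49 ± 0.05, SE, edgeR adjusted p = 5.45e-15).

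Markers of other cell types moved with the same groups, and their counts stand beside the same shares of all genes. For inhibitory neurons, 0 were higher and 7 lower with the unmutated hairpin, 1 higher and 6 lower with the 2-mutation hairpin, and 0 higher and 7 lower with the 5-mutation hairpin, of 8 tested. Inhibitory markers summed to 159 to 291 CPM in the unmutated-hairpin libraries, 186 to 274 CPM in the 2-mutation libraries and 269 to 352 CPM in the 5-mutation libraries, against 589 to 669 CPM in the empty-vector libraries. For excitatory neurons, 3 were higher and 2 lower with the unmutated hairpin, 4 higher and 1 lower with the 2-mutation hairpin, and 1 higher and 3 lower with the 5-mutation hairpin, of 6 tested. Excitatory markers summed to 1681 to 1774 CPM in the unmutated-hairpin libraries, 1748 to 1838 CPM in the 2-mutation libraries and 949 to 1041 CPM in the 5-mutation libraries, against 1774 to 1962 CPM in the empty-vector libraries. For astrocytes, 0 were higher and 2 lower with the unmutated hairpin, 0 higher and 4 lower with the 2-mutation hairpin, and 0 higher and 2 lower with the 5-mutation hairpin, of 7 tested. Astrocyte markers summed to 707 to 1027 CPM in the unmutated-hairpin libraries, 717 to 902 CPM in the 2-mutation libraries and 471 to 675 CPM in the 5-mutation libraries, against 939.8 to 1154 CPM in the empty-vector libraries. For pan-neuronal genes, 0 were higher and 5 lower with the unmutated hairpin, 3 higher and 3 lower with the 2-mutation hairpin, and 2 higher and 3 lower with the 5-mutation hairpin, of 8 tested. For the oligodendrocyte lineage, 4 were higher and 0 lower with the unmutated hairpin, 0 higher and 2 lower with the 2-mutation hairpin, and 1 higher and 2 lower with the 5-mutation hairpin, of 6 tested, and Sox10 and Mag were too low to test. The microglial genes Cx3cr1, Tmem119, P2ry12, C1qa and C1qb and the endothelial gene Cldn5 were also too low to test. Of the remaining microglial genes, 0 were higher and 1 lower with the unmutated hairpin, 0 higher and 2 lower with the 2-mutation hairpin, and 0 higher and 1 lower with the 5-mutation hairpin, of 2 tested. They summed to 1.38 to 2.6995 CPM in the unmutated-hairpin libraries, 0.725 to 1.01 CPM in the 2-mutation libraries and 0.714 to 1.29 CPM in the 5-mutation libraries, against 2.30 to 3.54 CPM in the empty-vector libraries. For endothelial and mural cells, 0 were higher and 1 lower with the unmutated hairpin, 0 higher and 1 lower with the 2-mutation hairpin, and 2 higher and 2 lower with the 5-mutation hairpin, of 5 tested. For fibroblasts and meninges, 0 were higher and 0 lower with the unmutated hairpin, 1 higher and 1 lower with the 2-mutation hairpin, and 2 higher and 1 lower with the 5-mutation hairpin, of 4 tested. Fibroblast markers summed to 22.3 to 33.9 CPM in the unmutated-hairpin libraries, 19.2 to 37.6 CPM in the 2-mutation libraries and 17.8 to 113 CPM in the 5-mutation libraries, against 23.5 to 30.7 CPM in the empty-vector libraries. In 5-mutation replicate 3 the collagen genes Col1a1 and Col1a2 had 58.2 and 40.1 CPM. The other 5-mutation libraries had 8.48 to 13.7 CPM of Col1a1 and 4.88 to 8.03 CPM of Col1a2. The part of these shifts in the levels of the chromatin enzymes was not tested.

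The members share features that their names do not fix. Their median exon length was 7244 bases, against 4518 over the 14470 protein-coding genes tested, and their median gene length was 49.7 kilobases, against 25.8. They ranged from 3.13 to 869.5 kilobases, the longest being Hdac9. Their median level per kilobase was 7.95 RPKM, against 5.00 RPKM over the coding genes, and ran from 0.499 RPKM in Chd7 to 72.1 RPKM in Chd3. After Chd3 the highest levels per kilobase were those of Smarcc2 (45.9 RPKM), Smarca4 (39.6 RPKM) and Chd5 (31.2 RPKM). Across the 84 members, Spearman's rho between gene length and log2 fold change was 0.204, −0.234 and −0.126 with the unmutated, 2-mutation and 5-mutation hairpins, against −0.129, −0.116 and −0.0944 across the coding genes. These are descriptions over genes that share libraries. Exons of 32 members overlap those of an antisense gene. Whether the authors counted with strand is not given in the sources used here, so part of those counts may belong to the partner.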

How the data were processed

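RNA was sequenced after depletion of ribosomal RNA, with a directional kit, per the labels' protocols. Tools named in the submitters' processing notes are STAR 2.7.2b for the build GRCm38.p6, cutadapt 1.15 and Trim Galore 0.6.0, bcl2fastq 2.20.0.422, featureCounts and edgeR. The deposited table holds the authors' raw counts as whole numbers per gene. Whether strand was used, how multiply mapped reads were treated and which annotation was counted are not given in the sources used here.

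Symbols, types, exons and coordinates came from GENCODE vM21 (GRCm38). Versioned IDs matched for 54587 of 55335 genes, and unversioned ones for 55154. Promoter windows came from RefSeq on GRCm38.p6. The 84 members and all lists were chosen with earlier results of these data known.

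Genes were kept with filterByExpr (19479), scaled by TMM and tested in R 4.3.3 with edgeR 4.0.16 (robust quasi-likelihood), with all 16 libraries in 1 model and 1 coefficient per group. Tests were 2-sided, with Benjamini-Hochberg adjustment over all genes tested. CPM use TMM-scaled library sizes, and RPKM divide them by exon length. Tables and promoters used Python 3.11.15, numpy 2.4.6 and pandas 2.3.3. The fit was tested on simulated data. No replicate pair agreed within sampling noise, since chi-square divided by its degrees of freedom was 3.46 to 24.2.

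Library values are given for members that met any of 3 rules, and also for Kdm4d, which met none of them. The first takes, in each of 6 contrasts, the 5 highest and 5 lowest log2 fold changes among called members whose log2 CPM averages 2 or more, for groups whose libraries do not overlap. The second takes the Dnmt, Tet and Ezh members. The third takes, in each other family, the member with the largest called change in each hairpin against the empty vector, at the same level of 2 or more. Of each partner list, up to 3 genes with the smallest p were eligible. Alternatives were RLE scaling, DESeq2 1.42.0, no filter on low counts, protein-coding genes only, a fit without Gm26917 and Gm42418, a replicate block and leaving out each library.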

Additional observations from a re-analysis of the deposited data

Results flagged for a closer look

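In 128 groups of 4 libraries, those of 32 members, 8 held a single library that lay far from the others by Dixon's 95% criterion, against the 5% of groups that chance alone would give. Chd2 had 96.2 CPM in 5-mutation replicate 2, against 81.9 to 83.4 CPM in the other 5-mutation libraries. Ezh2 had 12.05 CPM in 2-mutation replicate 4, against 11.1 to 11.2 CPM in the others. Hdac11 had 117.4 CPM in 2-mutation replicate 3, against 121.2 to 121.9 CPM. Kmt5c had 20.7 CPM in empty-vector replicate 1, against 17.4 to 17.7 CPM. Setd7 had 114.7 CPM in empty-vector replicate 1, against 124.7 to 125.6 CPM. Smarcd1 had 117.4 CPM in 5-mutation replicate 2, against 126.3 to 128.0 CPM. Smarcd3 had 63.0 CPM in empty-vector replicate 4, against 55.5 to 56.7 CPM. Tet2 had 118.9 CPM in unmutated-hairpin replicate 1, against 137.0 to 138.3 CPM. The 8 cases fell in 6 libraries, and the differences of these members named by the first rule for library values kept their direction and their side of the threshold when each library was left out in turn. Those differences had been picked as large and without overlap, so their smaller differences are not covered.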

How the results depend on the processing

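The counts of members called higher and lower moved by less than 1.5 times under every alternative run. When each library was left out in turn, members higher and lower than with the empty vector numbered 24 to 29 and 13 to 15 with the unmutated hairpin, 33 to 37 and 27 to 29 with the 2-mutation hairpin, and 34 to 37 and 26 to 27 with the 5-mutation hairpin. Under the other alternatives they numbered 24 to 29 and 12 to 16, 32 to 38 and 27 to 34, and 35 to 37 and 25 to 28. Between hairpins, leaving out libraries gave 33 to 35 higher and 29 to 32 lower (unmutated minus 2-mutation), 32 to 36 and 33 to 33 (unmutated minus 5-mutation) and 28 to 31 and 34 to 36 (2-mutation minus 5-mutation), and the 4-group test called 78 to 81 members. For the members named by the first rule, all 960 recomputed values of 60 differences kept their direction and their side of the threshold. That rule took only large differences without overlap between libraries, so this says little of calls near the threshold. Of 24 pairs of libraries with the same replicate number, 12 had deviations from their group means that correlated above 0.1 (median 0.10, lowest −0.02, highest 0.27). Of 72 pairs with different numbers, 4 did (median −0.03), and all 6 pairs of replicate 2 were among those above 0.1. Pairing asked for every same-number pair to exceed 0.1, so the numbers were not taken as pairing. That rule cannot show that pairing is absent, and the labels do not say whether a number marks a shared culture. With the replicate block, 29 rose and 16 fell with the unmutated hairpin, 38 rose and 30 fell with the 2-mutation hairpin, and 37 rose and 28 fell with the 5-mutation hairpin. Members averaging under 10 CPM, such as Chd7, Setd6 and Ezh2, rest on few counts, and Kdm4d, Kdm8 and Setdb2 on the fewest. Their lowest library counts were 59, 78 and 66 reads for Kdm4d, Kdm8 and Setdb2. The groups hold 4 libraries each.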

Other observations

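Transcripts of both sex chromosomes were found in every group. Xist, the X-linked noncoding RNA that silences an X chromosome in females, averaged 1056 ± 62.3, 718 ± 70.5 and 1289 ± 92.7 CPM with the unmutated, 2-mutation and 5-mutation hairpins, against 918 ± 26.4 CPM with the empty vector (SD, n = 4 each). Its log2 fold changes were 0.20 ± 0.06, −0.36 ± 0.06 and 0.49 ± 0.06 with the unmutated, 2-mutation and 5-mutation hairpins (SE; edgeR adjusted p = 0.0122, 3.54e-05 and 7.09e-07). Of the Y-linked genes, Ddx3y averaged 28.03 ± 2.53, 44.1 ± 4.83 and 34.4 ± 2.73 CPM with the unmutated, 2-mutation and 5-mutation hairpins, against 23.8 ± 1.47 CPM with the empty vector, Uty averaged 13.5 ± 1.46, 13.5 ± 1.62 and 17.8 ± 1.57 CPM with the unmutated, 2-mutation and 5-mutation hairpins, against 12.8 ± 0.640 CPM with the empty vector, and Eif2s3y averaged 13.0 ± 1.84, 17.5 ± 3.45 and 15.1 ± 0.0849 CPM with the unmutated, 2-mutation and 5-mutation hairpins, against 15.1 ± 2.78 CPM with the empty vector (SD, n = 4 each). Of these 4 genes, 2 rose and 0 fell with the unmutated hairpin, 1 rose and 1 fell with the 2-mutation hairpin, and 3 rose and 0 fell with the 5-mutation hairpin. Libraries of 1 sex could not be set apart. The X-linked members were Hdac6, Hdac8, Kdm5c, Kdm6a and Smarca1, and the Y-linked member was Kdm5d. The part of sex in their levels was not tested.

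Baz1a, an ISWI partner, had the largest log2 fold change among the partner genes eligible for naming, at a low level. Baz1a had 1.56, 1.89, 3.33 and 1.41 CPM in the unmutated-hairpin libraries, 0.640, 0.620, 1.06 and 1.20 CPM in the 2-mutation libraries and 2.96, 2.79, 4.92 and 1.66 CPM in the 5-mutation libraries, against 0.718, 0.893, 0.685 and 0.696 CPM in the empty-vector libraries. Its log2 fold change with the 5-mutation hairpin was 2.04 ± 0.33 (SE, edgeR adjusted p = 3.59e-05).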
